A study of Mus musculus with 6 samples.

Results

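Rnu12 and 2900060B14Rik, 2 of the 23420 genes counted, were followed through small RNA libraries of transfected mouse fibroblasts. Rnu12 encodes the U12 small nuclear RNA (snRNA) of the minor spliceosome, and 2900060B14Rik is a noncoding gene whose transcript resembles U4atac, another snRNA of that machine. They were selected on measured values as well as on this role, since earlier results on the same libraries had placed both among the lowest in the NXF3 pulldown against input. Their difference between pulldown and input is therefore given as a description without a test. The study addresses the part that NXF3, which belongs to the family of nuclear export factors, has in localising small RNAs.

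The comparison is between 3 libraries of NXF3 pulldown RNA and 3 libraries of input RNA, numbered 1 to 3 in each group. Equal numbers are not stated to mark 1 experiment, so the fit reported below used the group only, without pairing. Every library came from NIH 3T3, an immortalised mouse embryo fibroblast line, transfected with the pEGFP-NXF3 plasmid, so input cells carried the tagged protein too. Pulldown RNA was recovered with an anti-GFP antibody on beads, and input RNA saw no antibody. The bait was expressed from a plasmid in 1 cell line, and no pulldown without it was used here. After 14 cycles of PCR, a gel was used to keep products of 30 to 375 nucleotides.

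The minor spliceosome removes a small class of introns, the U12-type introns, from genes spread over many pathways. U11 and U12 together recognise the 5′ splice site and the branch site of such an intron, and U4atac delivers U6atac to it, base-paired and inactive until the complex is activated. U11, U12 and U4atac are made by RNA polymerase II and exported from the nucleus through the adaptor PHAX and the export receptor CRM1. In the cytoplasm they receive a ring of Sm proteins and a trimethylguanosine cap, and they then return to the nucleus by way of Cajal bodies. In humans, mutations of the U4atac gene cause a primordial dwarfism, and mutations of the U12 gene an early-onset ataxia.

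The sequences below are shown because they carry the features shared by these RNAs. They are GENCODE M21 transcript models on build GRCm38, written as DNA, whereas the submitters' processing notes name build mm9, and no coordinate was converted. Capitals mark the match to the letters of an Sm site, searched as AATTTTG, AATTTTTG or AATTTTTTG on the transcribed strand, and in Rnu12 also GTAAGGAA, which pairs with the branch site of U12-type introns. The Rnu12 model lies at chr15:83149644-83149794 on the plus strand. The snRNA model inside 2900060B14Rik, annotated as Gm22710, lies at chr1:118459141-118459265 on the minus strand. The model of Rnu11, the U11 RNA, is shown for comparison and lies at chr4:132270080-132270213 on the minus strand.
Rnu12: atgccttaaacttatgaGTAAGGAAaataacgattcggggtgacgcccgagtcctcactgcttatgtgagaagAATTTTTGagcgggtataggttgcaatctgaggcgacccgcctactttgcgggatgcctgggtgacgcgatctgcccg
2900060B14Rik, snRNA part: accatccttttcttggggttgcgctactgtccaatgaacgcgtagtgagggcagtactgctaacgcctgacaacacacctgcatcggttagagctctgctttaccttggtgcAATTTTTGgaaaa
Rnu11: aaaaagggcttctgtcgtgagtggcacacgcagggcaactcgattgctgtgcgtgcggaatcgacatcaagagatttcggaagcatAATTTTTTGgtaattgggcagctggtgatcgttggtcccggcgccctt

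Rnu12 and the snRNA part of 2900060B14Rik hold the same 8 letters, AATTTTTG, at bases 74 to 81 of 151 and at bases 113 to 120 of 125. In the U4atac-like RNA the match is 5 bases from the 3′ end of the model, and in Rnu12 it is 70 bases from it. One of the 3 motifs was present in 3.76% of 1383 snRNA-type transcript models and in the first 125 bases of 0.817% of 137043 transcript models of at least that length. The GC content was 51.7% for Rnu12, 48.8% for the snRNA part of 2900060B14Rik and 52.2% for Rnu11. A match to these letters is a description and does not show that the proteins were bound.

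The longest model of 2900060B14Rik has 616 bases, and the 125-base snRNA model is identical to its bases 3 to 127. The gene is annotated as antisense to Clasp1, which encodes a protein of microtubule plus ends, and no Clasp1 exon overlaps it. The tables name genes and not read positions, so reads of the U4atac-like snRNA cannot be told apart from reads of the rest of 2900060B14Rik. No other gene model was close to the U4atac-like sequence. Rnu12, by contrast, had 3 near-identical snRNA copies elsewhere in the annotation, with 96.6%, 96.5% and 95.4% identity over 149, 141 and 151 bases. None of these copies has a row in the tables and the sources used here do not say how reads shared with them were placed, so the Rnu12 count is uncertain to that extent.

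The promoter of 2900060B14Rik is shown because genes for spliceosomal snRNAs are known to carry a distal element with the octamer ATGCAAAT, the binding site of the factor Oct-1. The window is RefSeq's, build GRCm38.p6, chr1:118459216-118459515 on the minus strand, from 250 bases before the start site to 50 after it, with the octamer in capitals.
2900060B14Rik promoter: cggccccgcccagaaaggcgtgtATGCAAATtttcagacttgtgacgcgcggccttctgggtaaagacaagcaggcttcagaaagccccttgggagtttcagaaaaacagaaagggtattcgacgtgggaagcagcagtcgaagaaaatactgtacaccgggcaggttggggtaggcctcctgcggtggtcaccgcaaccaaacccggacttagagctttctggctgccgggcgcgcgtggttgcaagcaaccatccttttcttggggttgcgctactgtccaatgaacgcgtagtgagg
The octamer was found 1 time, at positions -227 to -220 counted from the start site, when both strands were searched (ATGCAAAT or ATTTGCAT). It was present in 1.74% of 32851 promoter windows of the same length.

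Gene counts per library ran from 769570 in pulldown 1 to 6946284 in pulldown 2, with 1884117 to 3935088 in input. Pulldown 1 also stood apart in composition, with correlations of log2 CPM across genes of 0.883 to 0.905 for pairs that include it and 0.926 to 0.952 for pairs that do not. Of 12 fibroblast markers 11 had reads, Lum having none, and they summed to 263 to 359 CPM in pulldown and 282 to 344 CPM in input. No epithelial marker had a read, and leukocyte and adipocyte markers had 2 and 1 reads in all 6 libraries together. The bait transcript, Nxf3, had 1140 ± 380 CPM in pulldown and 790 ± 329 CPM in input (SD, n = 3 each), and edgeR gave a log2 fold of 0.53 (SE 0.55, adjusted p = 0.968). Here and below, CPM is the usual depth-scaled count, with library sizes adjusted by TMM, a scaling on the bulk of genes, unless total counts are named.

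U12 was lower in every pulldown than in any input. Rnu12 had 2, 41 and 28 reads in pulldowns 1 to 3, against 58, 86 and 147 reads in inputs 1 to 3. These were 1.33, 9.70 and 9.26 CPM in pulldown and 20.1, 43.0 and 32.7 CPM in input. The highest pulldown lay below the lowest input, so the groups did not overlap. The mean was 6.76 ± 4.71 CPM in pulldown and 31.9 ± 11.5 CPM in input (SD, n = 3 each), a log2 fold of -2.09 (SE 0.46, 95% interval -3.08 to -1.11, edgeR fit), or 4.26-fold lower. By mean level Rnu12 was the 627th gene in pulldown and the 132nd in input.

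The U4atac-like gene showed the same order of groups with a wider gap. 2900060B14Rik had 2, 15 and 19 reads in pulldowns 1 to 3, against 74, 73 and 99 reads in inputs 1 to 3. These were 1.33, 3.55 and 6.28 CPM in pulldown and 25.6, 36.5 and 22.0 CPM in input. Again the groups did not overlap, and input 2 was the highest library for both genes. The mean was 3.72 ± 2.48 CPM in pulldown and 28.1 ± 7.51 CPM in input (SD, n = 3 each), a log2 fold of -2.77 (SE 0.40, 95% interval -3.63 to -1.92, edgeR fit), or 6.84-fold lower. It was the 1328th gene by mean level in pulldown and the 148th in input.

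**Figure D1:**
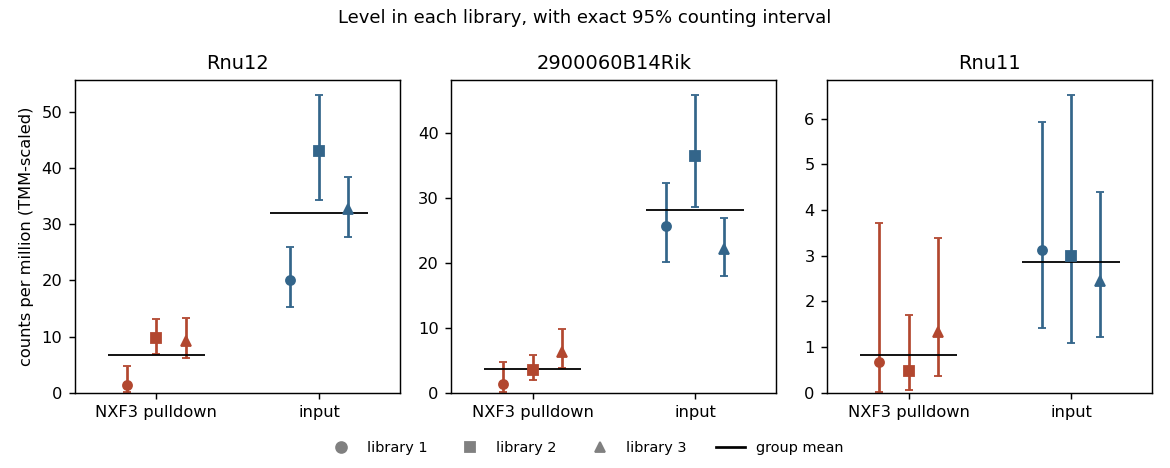
Level of Rnu12, 2900060B14Rik and Rnu11 (y axis, TMM-scaled CPM) in each NXF3 pulldown and input library (x axis). Points are single libraries, bars are exact 95% counting intervals and horizontal lines are group means; for Rnu12 the pulldown libraries reach 9.70 and the input libraries start at 20.1.

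Among the 1852 genes tested, 2900060B14Rik had rank 1 and Rnu12 rank 3 from the bottom by log2 fold, and 0.216% of genes had a log2 fold of -2 or below. The edgeR quasi-likelihood test with Benjamini-Hochberg adjustment over all of them called 0.054% lower, which is the 1 gene 2900060B14Rik itself, and 0% higher. At an unadjusted p under 0.05 it called 3.35% lower and 2.27% higher, and of the other tools DESeq2 called 1 gene lower and 1 higher and limma-voom 1 lower and 0 higher. With total-count scaling, and without pulldown 2, edgeR called 0 genes lower. Every pulldown lay below every input for 6.16% of tested genes and above every input for 4.27%. Both genes were chosen with these values known, so nothing is read from their place or from the call of 2900060B14Rik. The values are shares of bulk libraries, so less of these RNAs and more of other RNA in the pulldown cannot be told apart.

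The reads counted in each pulldown were set against those that the input level would give at the TMM-adjusted library size. That size was 1500354 in pulldown 1, against 769570 gene counts, and 4226908 in pulldown 2, against 6946284. The reads given next therefore depend on this scaling. At the mean input level, Rnu12 would have given 47.9, 135 and 96.6 reads in pulldowns 1 to 3, where 2, 41 and 28 were counted. 2900060B14Rik would have given 42.1, 119 and 84.8 reads, where 2, 15 and 19 were counted. The exact 95% Poisson interval of the 2 reads of each gene in pulldown 1 ran from 0.242 to 7.22 reads. The interval for 2900060B14Rik in pulldown 3, its highest pulldown, ran from 3.78 to 9.81 CPM, and that in input 3, its lowest input, from 17.9 to 26.8 CPM. For Rnu12 the interval in pulldown 2 ran from 6.96 to 13.2 CPM and that in input 1 from 15.3 to 26.0 CPM. These intervals cover counting error only, and not differences between libraries. As PCR reads without molecular identifiers are not independent molecules, they may be too narrow even for that.

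**Figure D2:**
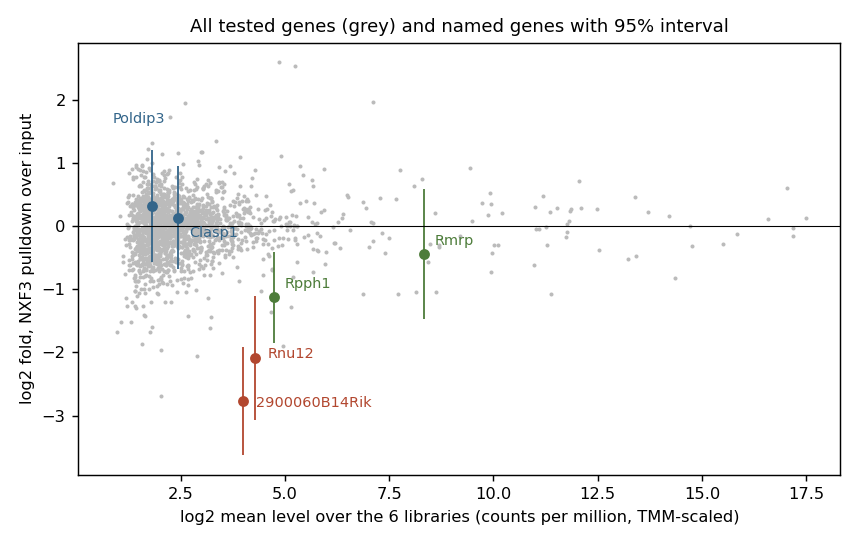
Log2 fold of NXF3 pulldown over input (y axis) against log2 mean level over the 6 libraries (x axis, TMM-scaled CPM) for the 1852 tested genes in grey, with named genes and their 95% intervals in colour. Rnu12 and 2900060B14Rik, at -2.09 and -2.77, are among the lowest points, while Clasp1 and Poldip3 lie within the bulk of genes at 0.14 and 0.32.

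The ratio of the 2 genes within a library needs no scaling between libraries. Rnu12 reads per 2900060B14Rik read were 1.00, 2.73 and 1.47 in pulldowns 1 to 3, and 0.784, 1.18 and 1.48 in inputs 1 to 3. The 1.00 of pulldown 1 rests on 2 reads of each gene, with an exact 95% counting interval of 0.0725 to 13.8. The groups overlapped in this ratio, unlike in either level. With 0.5 added to each count, the log2 ratio averaged 0.66 ± 0.72 in pulldown and 0.15 ± 0.46 in input (SD, n = 3 each), a difference of 0.50 that was smaller than the pulldown spread. Over summed reads, 71 of Rnu12 and 36 of 2900060B14Rik in pulldown gave a ratio of 1.97 (exact 95% counting interval 1.30 to 3.03), and 291 and 246 in input gave 1.18 (0.995 to 1.41). Without pulldown 2, which had the highest ratio, the difference of log2 ratios was 0.12.

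Ratios to the stable RNAs Rmrp and Rpph1, both made by RNA polymerase III, need no scaling either. Rmrp, the RNA of RNase MRP, had 261, 1494 and 895 reads in pulldown and 858, 846 and 1772 in input. Per 1 Rmrp read, Rnu12 gave 0.00766, 0.0274 and 0.0313 reads in pulldown and 0.0676, 0.102 and 0.083 in input, with no overlap. For 2900060B14Rik the same ratio was 0.00766, 0.01 and 0.0212 in pulldown and 0.0862, 0.0863 and 0.0559 in input, also with no overlap. Rpph1, the RNA of RNase P, was itself lower, at 16.7 ± 0.74 CPM in pulldown and 36.7 ± 11 CPM in input (SD, n = 3 each). Its edgeR log2 fold was -1.13 (SE 0.33, adjusted p = 0.506). The groups did not overlap for Rpph1, with a highest pulldown of 17.3 CPM and a lowest input of 26.1 CPM. Per 1 Rpph1 read, 2900060B14Rik gave 0.0769, 0.211 and 0.396 reads in pulldown and 0.712, 0.76 and 0.846 in input, without overlap. Rnu12 per Rpph1 read overlapped, at 0.0769, 0.577 and 0.583 in pulldown and 0.558, 0.896 and 1.26 in input. In pulldown 1 all these ratios rest on 2 reads of Rnu12 and 2 of 2900060B14Rik. Both genes were chosen for low pulldown values, so their separation in these ratios is a description and no independent support. The share of all genes that separate in such ratios was not computed.

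**Figure D3:**
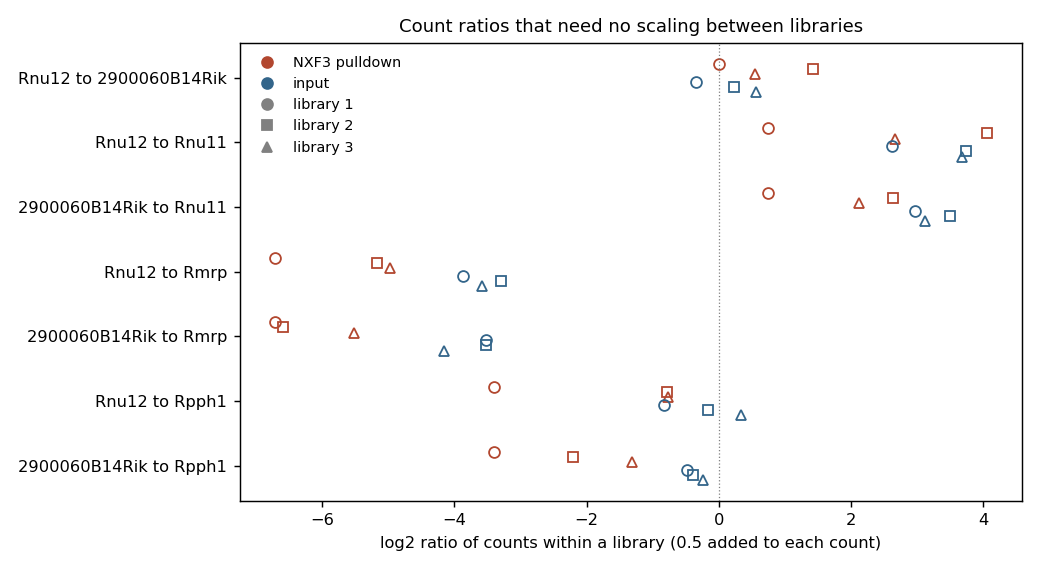
Log2 ratio of read counts of 2 genes within a library (x axis, 0.5 added to each count) for each named pair (y axis), with 1 symbol per library, NXF3 pulldown above input. The ratio of Rnu12 to 2900060B14Rik overlaps between the groups, at 0.66 ± 0.72 in pulldown and 0.15 ± 0.46 in input, while both genes set against Rmrp are separate.

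U11, the partner of U12 in the di-snRNP that first binds the intron, was also counted, with few reads. Rnu11 had 1, 2 and 4 reads in pulldowns 1 to 3, against 9, 6 and 11 reads in inputs 1 to 3. The groups did not overlap, at 0.821 ± 0.445 CPM in pulldown and 2.86 ± 0.356 CPM in input (SD, n = 3 each). Among tested genes 6.16% lay wholly below input in the same way, and the share among genes with too few reads to be tested was not computed. Their difference on the log2 scale was -1.93 (p = 0.1 in an exact permutation test, two-sided, which is the smallest p that 3 against 3 libraries can give). With 33 reads in all, Rnu11 was below the filter of the edgeR test, and without a filter its log2 fold was -1.74 (95% interval -2.97 to -0.50, adjusted p = 0.866, edgeR). Reads of Rnu11 cannot be told apart from those of Gm28872, a noncoding model on the opposite strand, as no source used here states whether counting used strand. Near copies of U11 exist as for U12.

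Set against U11, the groups overlapped for Rnu12 and not for 2900060B14Rik, a difference that was not tested. Rnu12 reads per Rnu11 read were 2.00, 20.5 and 7 in pulldown and 6.44, 14.3 and 13.4 in input, overlapping. 2900060B14Rik reads per Rnu11 read were 2.00, 7.50 and 4.75 in pulldown and 8.22, 12.2 and 9 in input, with no overlap. These ratios rest on the 1 to 4 Rnu11 reads of each pulldown, and Rnu12 and 2900060B14Rik were chosen for low pulldown values. How many of all genes separate in ratios to Rnu11 was not computed.

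Of 12 other spliceosomal and related snRNA names, 3 had a row in the tables, Rnu11, Rnu6 and Rnu7. Rnu6, of the major spliceosome, and Rnu7, which serves histone mRNA 3′ ends, had 0 reads in every library, which allows up to 3 reads in each. The names searched for U6atac, U4atac, U1, U2 and U5 had no row, and no name for U4 was among those searched.

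Per length, U12 lay among the other small stable RNAs. In CPM per kilobase of the longest GENCODE M21 model, pulldown levels were 977 ± 326 for Rmrp, 95.9 ± 50.9 for Vaultrc5, the RNA of vault particles, 52.2 ± 2.31 for Rpph1, 44.8 ± 31.2 for Rnu12, 6.13 ± 3.32 for Rnu11 and 6.04 ± 4.03 for 2900060B14Rik (SD, n = 3 each). Input levels per kilobase were 1322 ± 234 for Rmrp, 257 ± 90.9 for Vaultrc5, 212 ± 75.9 for Rnu12, 115 ± 34.4 for Rpph1, 45.5 ± 12.2 for 2900060B14Rik and 21.3 ± 2.66 for Rnu11 (SD, n = 3 each). Within 1 SD of each mean, Vaultrc5, Rpph1 and Rnu12 ran into one another in pulldown, as did Rnu11 and 2900060B14Rik, and in input Rnu12 ran into both Vaultrc5 and Rpph1. The place of 2900060B14Rik depended on the length used, as its level per kilobase was 29.8 ± 19.8 in pulldown and 224 ± 60.1 in input if all its reads came from the 125-base snRNA part. The kit joins adapters to RNA with a 5′ phosphate, which capped snRNAs lack, and what part of the reads came from intact RNA was not tested.

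The genes around both loci were not called in either direction. Clasp1, on the opposite strand of 2900060B14Rik, had 7, 27 and 17 reads in pulldown and 25, 7 and 16 in input, and the groups overlapped, at 5.56 ± 0.863 CPM in pulldown and 5.24 ± 2.96 CPM in input (SD, n = 3 each). By edgeR, Clasp1 had a log2 fold of 0.14 (95% interval -0.68 to 0.95, SE 0.38, adjusted p = 0.993). Per Clasp1 read, 2900060B14Rik gave 0.286 to 1.12 reads in pulldown and 2.96 to 10.4 in input. Poldip3, whose model ends 259 bases from that of Rnu12 on the opposite strand and which encodes a partner of DNA polymerase delta, had 4, 17 and 13 reads in pulldown and 7, 11 and 10 in input. By edgeR, Poldip3 had a log2 fold of 0.32 (95% interval -0.57 to 1.21, SE 0.41, adjusted p = 0.968). Both intervals include 0. The difference from the log2 folds of 2900060B14Rik and Rnu12 was not tested, as those genes were chosen for low pulldown values.

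The protein genes of the minor spliceosome gave too few reads to be tested. Of 14 listed genes 13 had a read and 0 passed the filter. Their reads together numbered 9, 24 and 20 in pulldown and 15, 5 and 31 in input. Rnpc3, the 65K protein that joins U11 to U12, had 1, 5 and 7 reads in pulldown and 2, 2 and 8 in input, and Zrsr2, which acts at the 3′ splice site of such introns, had 5, 6 and 3 in pulldown and 6, 0 and 5 in input. Snrnp48, of the U11/U12 di-snRNP, had 0, 2 and 3 in pulldown and 3, 0 and 3 in input. Such reads are fragments of mRNA and do not measure the protein.

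Proteins that both spliceosomes share showed no called change. Of 26 listed, 25 had reads and 6 were tested, and edgeR called 0 higher and 0 lower, beside 0% and 0.054% of all tested genes. With no adjustment, 0 and 0 had a p under 0.05, and DESeq2 and limma-voom called 0. Their log2 folds ran from -0.15 to 0.15 with a median of 0.05, against -0.004 over all tested genes. Prpf8, the large scaffold of the catalytic core, had a log2 fold of 0.15 (SE 0.30), Sf3b1, which holds the branch site, of 0.14 (SE 0.27), Sf3b2 of -0.15 (SE 0.30) and Eftud2, a GTPase of the U5 particle, of 0.10 (SE 0.34).

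Factors that assemble and export snRNPs were likewise not called. Of 27 listed, 26 had reads and 2 were tested, with 0 higher and 0 lower by edgeR, DESeq2 and limma-voom, and 0 at an unadjusted p under 0.05. Xpo1, which encodes the export receptor CRM1, had 10, 73 and 39 reads in pulldown and 47, 41 and 62 in input, with an edgeR log2 fold of -0.36 (SE 0.32, adjusted p = 0.968). Strap, a member of the SMN complex that loads the Sm ring, had a log2 fold of 0.10 (SE 0.41).

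Small Cajal body RNAs act on spliceosomal snRNAs, as guides for the enzymes that modify them. Of 7 tested, edgeR called 0 higher and 0 lower, as did DESeq2 and limma-voom. With no adjustment, a p under 0.05 was found for 1 higher and 3 lower, beside 2.27% higher and 3.35% lower among all tested genes. Their median log2 fold was 0.05. Scarna13 had 17, 65 and 37 reads in pulldown and 254, 43 and 165 in input, an edgeR log2 fold of -1.89 (SE 0.47, adjusted p = 0.304), and of -1.14 without input 1. Scarna8 had a log2 fold of -1.62 (SE 0.44). Scarna3a, at -1.44 (SE 0.66), had 143 of its 218 reads in input 3, and without that library its log2 fold was 0.19. Scarna17 had a log2 fold of 0.93 (SE 0.36), and of 0.43 without pulldown 2. Their reads summed to 78, 390 and 161 in pulldown and 401, 154 and 552 in input, overlapping. Scaled to the sum of all such RNAs, the log2 fold was -1.73 for Rnu12 and -2.23 for 2900060B14Rik.

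Of the other stable noncoding RNAs 3 were tested, and edgeR, DESeq2 and limma-voom called 0 higher and 0 lower. With no adjustment, edgeR gave 2 of them a p under 0.05, both lower, beside 3.35% lower among all tested genes, and the median log2 fold of the 3 was -1.13. They were Rpph1 and Rmrp, described above, and Vaultrc5, with 8, 73 and 56 reads in pulldown and 147, 68 and 114 in input (edgeR log2 fold -1.36, SE 0.42, adjusted p = 0.568). Terc, the RNA template of telomerase, had 1, 9 and 9 reads in pulldown and 10, 16 and 43 in input and did not pass the filter. Every pulldown lay below every input for Rpph1, Vaultrc5 and Terc, so this was not particular to the minor spliceosome RNAs. The highest pulldown and lowest input were 18.5 and 25.4 CPM for Vaultrc5 and 2.98 and 3.47 CPM for Terc. Rmrp overlapped, with pulldowns up to 353 CPM and inputs from 297 CPM. On total counts Rpph1 and Terc overlapped too.

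By pattern over the 6 libraries each of the 2 genes was the nearest to the other. The measure was the root mean square difference of centred log2 CPM, taken over the 1497 tested genes that averaged 10 counts or more, and it was 0.513 between Rnu12 and 2900060B14Rik. Next for Rnu12 were Mir540, a microRNA gene, at 0.575 and Hist1h2bm, a histone H2B gene, at 0.642. Next for 2900060B14Rik were Mir15a, a microRNA gene, at 0.602 and Hist1h3h, a histone H3 gene, at 0.62. The log2 folds of these 4 were -1.42 (Mir540, SE 0.39), -1.20 (Hist1h2bm, SE 0.55), -2.69 (Mir15a, SE 0.49) and -1.96 (Hist1h3h, SE 0.45), and edgeR called none of them, the smallest adjusted p being 0.0581. Closeness here follows in part from the choice of both genes for low pulldown values, and no test is given.

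The folds of both genes stayed negative under all 19 other settings run for each, which cover scaling, tool, filter, block and left-out libraries. Rnu12 ran from -2.42 without pulldown 2 to -1.73 without pulldown 1. 2900060B14Rik ran from -3.28 without pulldown 3 to -2.23 when scaled to small Cajal body RNAs. On total counts, Rnu12 had 5.68 ± 2.98 CPM in pulldown and 32.7 ± 15.8 CPM in input, and 2900060B14Rik had 3.52 ± 1.99 CPM in pulldown and 27.7 ± 9.96 CPM in input (SD, n = 3 each). With TMM scaling, the pulldown spread of Rnu12 came mostly from pulldown 1, at 1.33 CPM against 9.70 and 9.26 CPM in pulldowns 2 and 3. On total counts it did not, as pulldowns 1 to 3 had 2.60, 5.90 and 8.54 CPM. Pulldown 1 rests on 2 reads of Rnu12.

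**Figure D4:**
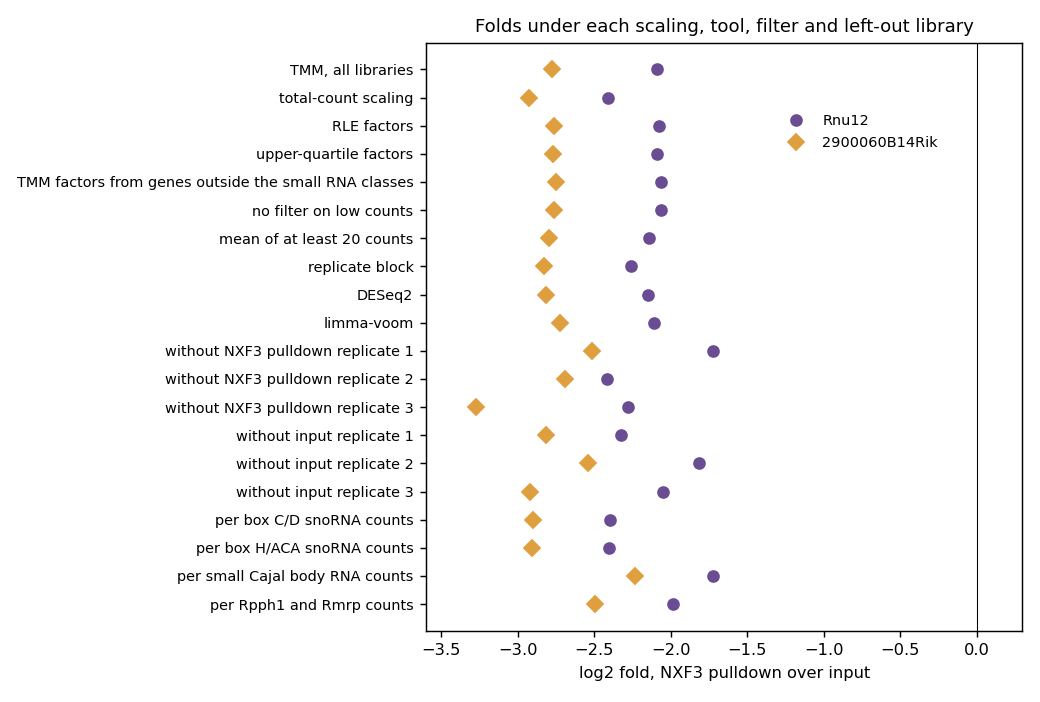
Log2 fold of NXF3 pulldown over input (x axis) for Rnu12 and 2900060B14Rik under each setting (y axis). All points lie between -3.28 and -1.73, and the 2900060B14Rik fold is below the Rnu12 fold in each setting.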

How the data were processed

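Raw read counts per gene symbol, 1 table per library, were used as the authors deposited them. The submitters' processing notes name Bowtie, Partek and build mm9. Per the file names and summary lines, rRNA reads had been removed and reads counted with HTSeq-count. The sources used here give no versions, strand setting or annotation. The 5 summary lines name no gene and entered neither library sizes nor tests. Of all reads in a table, 22.2% to 35.6% were assigned to a gene.

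Testing used R 4.3.3 with edgeR 4.0.16 on all 6 libraries, with TMM scaling, filterByExpr (minimum count 10), the quasi-likelihood F test and Benjamini-Hochberg adjustment at 0.05. SE and 95% intervals were derived from the F statistic. DESeq2 1.42.0 and limma-voom 3.58.1 were alternatives, beside other scalings, filters, a replicate block and leaving out each library. Near copies were searched with BLAST 2.17.0. Sequences are from GENCODE M21 and RefSeq, and 1 of the 2 members had a RefSeq promoter entry. Members and lists were chosen with earlier results of these data known. Named genes were both members, their neighbours, the bait, up to 4 tested members per list with the smallest p (in untested lists the 3 with most reads), the 3 nearest patterns per member and every called gene.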

Additional observations from a re-analysis of the deposited data

How the results depend on the processing

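The number of genes called lower (1) was 0 with total-count scaling, 9 without a filter and 3 with the replicate block, and 0 to 5 when single libraries were left out (0 without pulldown 2, 5 without pulldown 1, 2 without input 2). The number called higher (0) was 7 without a filter, 1 with DESeq2 and 1 with the replicate block, and 0 to 6 when single libraries were left out (6 without pulldown 1). The cause was not tested. Without a filter 3 small Cajal body RNAs and 1 other stable RNA were called lower. Mir15a, not called in the fit reported, was called without a filter, without pulldown 1 and without input 2, and Hist1h3h without a filter. Of the named genes that were not called, 6 changed sign when single libraries were left out, with log2 folds of -0.15 to 0.71 for Clasp1, -0.020 to 0.32 for Prpf8, -0.44 to 0.016 for Sf3b2, -0.092 to 0.37 for Eftud2, -0.26 to 0.48 for Strap and -2.18 to 0.19 for Scarna3a. Strap was also at -0.19 with total-count scaling, -0.088 with the replicate block and -0.00040 with DESeq2. The log2 folds of both members and their ratio moved by less than 1 SD between libraries in every alternative; the ratio difference (0.50) ran from 0.12 to 0.83 over left-out libraries. Equal library numbers are not stated to mark 1 experiment, and deviations of same-numbered libraries correlated at 0.03 to 0.14 across genes. Each of the 6 libraries correlated best with its own number, a hint from the data and not from the design. For input 1 this was nearly a tie, at 0.0304 with pulldown 1 and 0.0294 with pulldown 2. With the replicate block the log2 fold was -2.26 for Rnu12 and -2.83 for 2900060B14Rik. Members rest on 2 to 41 reads per pulldown library, so differences within the counting intervals were not detectable at this depth.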
